A study of Homo sapiens with 30 samples.

Results

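U2OS, a human osteosarcoma cell line, was transfected with a plasmid that encodes wild-type FOXP2 (hereafter WT FOXP2) or was mock transfected, in both cases without the drug CHIR99021. These 2 groups were taken by their labels and make up 10 of the study's 30 RNA-seq libraries, 5 with WT FOXP2 and 5 mock. WT FOXP2 cells were given 500 ng of plasmid for 48 h. No label says whether an empty plasmid was given to mock cells, so what FOXP2 did and what transfected DNA did cannot be told apart. Direct tests at the end use 3 further groups of 5: WT FOXP2 with CHIR99021 (CHIR, an inhibitor of the kinase GSK3, at 5 µM from 72 h before transfection), CHIR without FOXP2, and dhelix FOXP2, a construct that lacks residues 264 to 272. All groups are the same line and differ in no labelled allele, and the 5 samples of each are labelled as biological replicates.

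FOXP2 is a transcription factor of the forkhead family. FOXP proteins bind DNA through a forkhead domain, pair with each other through a leucine zipper, and are best known as repressors that recruit corepressors, although activation has also been described. FOXP2 is known above all from neurons and from an inherited speech and language disorder. U2OS cells are of mesenchymal, bone tumour origin, so the comparison shows a neuronal and developmental regulator placed in a line that makes almost none of it.

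Total counts were 16858604 to 28132145 in the WT FOXP2 libraries and 15755842 to 28604957 in the mock libraries. Levels are given in CPM, reads of a gene per 1e6 reads, on library sizes scaled with trimmed means of M values. They rank no gene above another, since they are not corrected for gene length. A gene "rose" or "fell" where the quasi-likelihood test of edgeR gave an adjusted p under 0.05 over all 18485 genes tested. Gene lists are counted over the members that passed the filter on low counts, which kept for example 15 of 41 chemokines, 37 of 44 collagen chains and all 31 ribosome biogenesis genes. A value after ± is the SD of 5 libraries for a level and the standard error for a log2 fold change. For means printed without it, among the named genes at 10 CPM or more, the SD had a median of 4.71% of the mean with WT FOXP2 (at most 28.7%, in IGFBP5) and 3.31% in mock (at most 10.1%). None of the 10 libraries stood apart from its group, and no pair agreed within counting noise (lowest chi-square per gene 1.85 among WT FOXP2 pairs and 1.43 among mock pairs). Over the 10 libraries the groups separated on a first principal component with 90.75% of the variance, and the second held 1.63%.

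FOXP2 RNA was high in every transfected library and near absent in mock cells. FOXP2 (ENSG00000128573) stood at 5906, 7806, 6863, 7769 and 7039 CPM in the WT FOXP2 libraries and at 1.12, 0.686, 0.858, 1.25 and 0.577 CPM in the mock libraries. The groups do not come near each other, with 10 to 26 reads per mock library. The means were 7076 ± 779 CPM and 0.898 ± 0.284 CPM, a log2 fold change of 12.94 ± 0.16, and a two-sided exact permutation test gave p = 0.00794, the smallest that 5 libraries against 5 allow. Plasmid and endogenous transcripts are summed in this value, which took 0.672% of the counts of WT FOXP2 cells. In bulk RNA the share of cells that took up the plasmid is not known, and fewer cells of a kind cannot be told apart from less RNA per cell.

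Most of the transcriptome differed between the groups. Of the genes tested, 7384 rose (39.9%) and 7699 fell (41.6%), 81.6% in all, and in 73% the libraries of the 2 groups did not overlap. With so high a background a call alone says little about a gene, so the size of the change carries the account below. A test against a 2-fold change was passed by 1934 genes upward and 2736 downward, 25.3% of those tested. By point estimate, 977 genes rose and 1376 fell at least 4-fold, and 346 rose and 224 fell at least 16-fold. The median size of a change, up or down, was 0.64 on the log2 scale.

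Genes with many reads rose more often and genes with few reads fell more often. Above a mean of 100 CPM, 1494 of 2513 genes rose and 743 fell, whereas between 1 and 10 CPM 1201 of 4662 rose and 2625 fell. The genes that rose at least 2-fold took 15.4 to 16.1% of the counts in WT FOXP2 libraries and 6.25 to 6.29% in mock libraries. Those that fell at least 2-fold took 2.63 to 2.81% in WT FOXP2 libraries and 10.3 to 10.5% in mock libraries. Long noncoding RNAs leaned down, with 636 of 2547 risen, 1253 fallen and a median log2 fold change of -0.40, against 0.03 for protein-coding genes. The median of all genes was -0.02, and it was -0.19 when libraries were scaled to total counts alone, where 40.25% of the calls were upward in place of 48.96%. Shifts about as large as that difference therefore depend on the scaling, and the changes described below are larger unless stated.

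**Figure D1:**
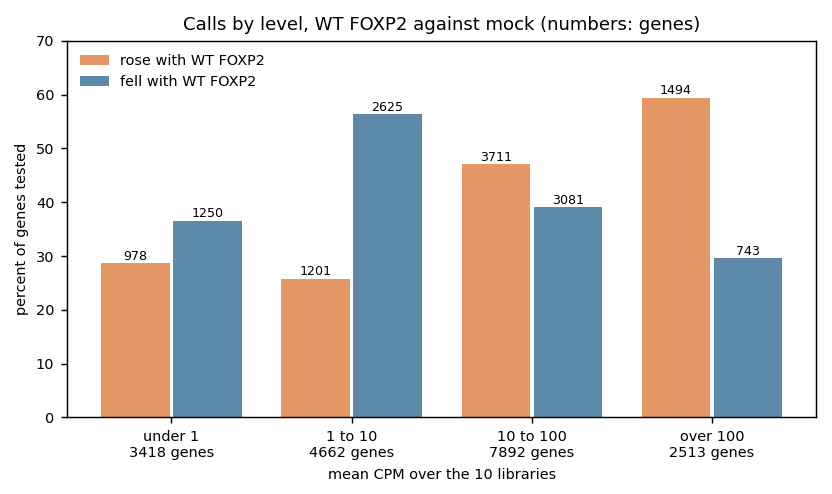
Share of tested genes (vertical axis, percent) that rose (orange) or fell (blue) with WT FOXP2 against mock, in 4 classes of mean level over the 10 libraries (horizontal axis, CPM), with the number of genes on each bar. Above 100 CPM 1494 genes rose and 743 fell, and from 1 to 10 CPM 1201 rose and 2625 fell.

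Immediate early genes, which cells switch on within minutes of growth factor or stress signals without new protein synthesis, were higher with WT FOXP2. Of 13 tested subunits of AP-1, a dimer of FOS, JUN, ATF and MAF family proteins, 11 rose and 2 fell, with a median log2 fold change of 1.53, against -0.02 over all genes. FOSB was at 14.8, 20.1, 18.1, 17.7 and 17.7 CPM in the WT FOXP2 libraries and at 0.875, 0.685, 0.627, 0.834 and 0.519 CPM in the mock libraries (log2 fold change 4.64 ± 0.15). FOSL1, the subunit Fra-1, averaged 281 ± 16.1 CPM with WT FOXP2 and 16.3 ± 1.15 CPM in mock. The small MAF protein gene MAFF averaged 150.4 ± 9.39 CPM with WT FOXP2, against 9.29 ± 0.387 CPM in mock. FOS itself changed less, with 53.9 CPM against 16.9 CPM, and so did JUN, with 229 CPM against 98.0 CPM. JUND, a subunit also present in resting cells, went the other way, at 18.7 to 20.9 CPM with WT FOXP2 and 58.8 to 66.4 CPM in mock (-1.65 ± 0.09).

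Early response factors outside AP-1 did likewise, with 12 of 15 risen and 2 fallen (median 1.29). EGR1, a zinc finger factor and a standard readout of ERK signalling, averaged 657 ± 77.4 CPM with WT FOXP2 and 99.4 ± 4.40 CPM in mock, and its relative EGR4 averaged 11.7 CPM and 0.0474 CPM. MYC, a master regulator of growth, was at 245, 274, 277, 283 and 259 CPM in the WT FOXP2 libraries, against 40.5, 38.2, 40.0, 40.2 and 42.7 CPM in the mock libraries. Its log2 fold change was 2.73 ± 0.05, and its paralogues MYCN (0.155 CPM against 3.57 CPM) and MYCL (3.47 CPM against 25.8 CPM) fell. ARC, an activity-regulated gene of synapses, averaged 231 CPM with WT FOXP2 and 21.1 CPM in mock. Of 18 MAP kinase feedback genes, which encode phosphatases, Sprouty and SPRED inhibitors and ERK-responsive genes such as ETV1, 14 rose and 4 fell (median 0.84). The dual-specificity phosphatase DUSP5 averaged 81.8 ± 3.22 CPM with WT FOXP2 and 9.58 ± 0.326 CPM in mock, and DUSP1 49.4 CPM and 11.8 CPM. The ETS factor gene ETV1 and PHLDA1 were among the falls, at 3.87 CPM against 12.9 CPM and at 55.9 CPM against 197 CPM.

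**Figure D2:**
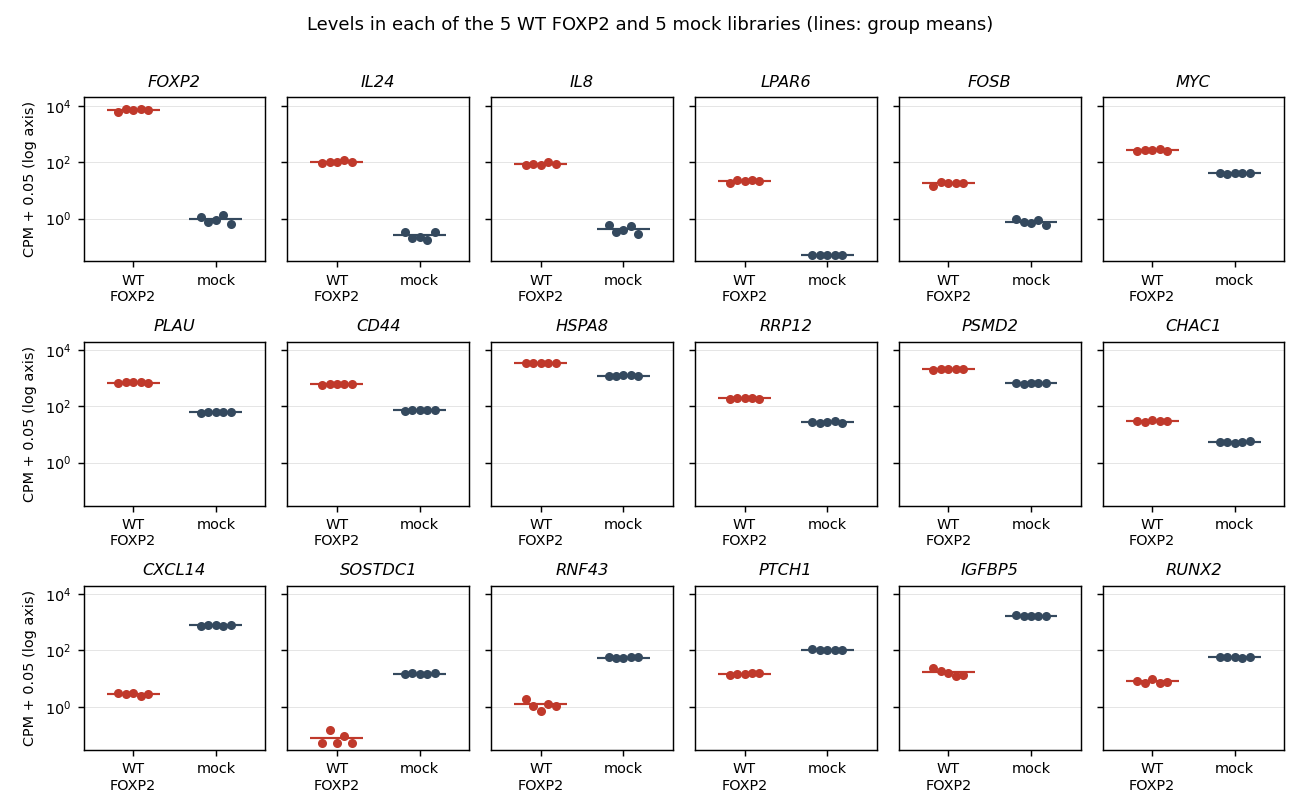
Level of 18 genes in each of the 5 WT FOXP2 libraries (red, left) and the 5 mock libraries (dark blue, right), as CPM plus 0.05 on a log axis, with a line at each group mean. In every panel the groups lie apart: FOXP2 is at 5906 to 7806 CPM against 0.577 to 1.25 CPM, and IGFBP5 at 12.7 to 24.3 CPM against 1649 to 1765 CPM.

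NF-kB is a family of dimers held in the cytoplasm by IkB proteins and released by inflammatory and stress signals. Many of its targets are its own subunits and inhibitors. Of 22 such subunits and feedback genes 21 rose and 1 fell, and 12 of the rises passed the test against 2-fold (median log2 fold change 1.32). The single fall was small and was no call without mock replicate 3 or without WT FOXP2 replicate 5. TRAF1, an adaptor of TNF receptors, was at 48.1, 60.1, 56.8, 64.5 and 57.8 CPM in the WT FOXP2 libraries and at 0.924, 1.03, 0.990, 1.13 and 0.807 CPM in the mock libraries (5.87 ± 0.09). RELB, a subunit of the noncanonical branch, averaged 87.4 ± 6.39 CPM with WT FOXP2 and 7.14 ± 0.801 CPM in mock. The deubiquitinase gene TNFAIP3, an inhibitor of the pathway, averaged 75.4 ± 8.74 CPM and 5.99 ± 0.705 CPM. NFKBIE and NFKBIA, which encode IkB proteins, averaged 89.5 CPM and 51.7 CPM with WT FOXP2, against 10.3 CPM and 20.6 CPM in mock.

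Secreted cytokines held some of the largest changes. Interleukins and colony-stimulating factors rose in 11 of 18 tested and fell in 5 (median 1.5), of which 6 rose when genes under a mean of 1 CPM were left out. IL24, a cytokine of the IL-10 family, was at 93.3, 101, 106, 116 and 104 CPM in the WT FOXP2 libraries and at 0.292, 0.147, 0.165, 0.119 and 0.288 CPM in the mock libraries (8.99 ± 0.15). IL11, a cytokine of the IL-6 family that acts on bone and stroma, averaged 131 ± 9.17 CPM with WT FOXP2 and 9.86 ± 0.528 CPM in mock. IL1A, an alarmin, averaged 11.2 CPM and 0.0903 CPM, and IL23A, a subunit of IL-23, 9.38 CPM and 0.253 CPM. The granulocyte factor gene CSF3 had 0 counts in mock and was at 1.78 to 2.13 CPM with WT FOXP2, at least 13.9-fold higher against a floor of 3 counts per library. CSF2 fell (0.510 CPM against 0.832 CPM). LIF did too by a little (99.7 CPM against 111 CPM, -0.16), and its value of -0.12 without mock replicate 3 was no call.

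Chemokines split: 5 of 15 rose, all past the 2-fold test, and 8 fell, 7 of them past it (median -0.88). IL8, now CXCL8, which attracts neutrophils, was at 82.1, 88.9, 80.4, 98.5 and 87.6 CPM in the WT FOXP2 libraries and at 0.535, 0.294, 0.330, 0.477 and 0.231 CPM in the mock libraries (7.87 ± 0.13). CXCL3, of the same subfamily, averaged 9.19 CPM and 0.313 CPM, CCL20 7.50 CPM and 0.959 CPM, and CCL3 had 0 counts in mock, at least 19.7-fold higher with WT FOXP2. CXCL14, a chemokine made by many resting tissues, went the opposite way. It was at 3.07, 2.84, 3.13, 2.28 and 2.70 CPM in the WT FOXP2 libraries, against 771, 790, 822, 758 and 808 CPM in the mock libraries (-8.15 ± 0.08). CCL24 fell as well, to 1.16 CPM against 20.4 CPM.

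The promoters of IL8 and CXCL14 are printed because these 2 chemokines moved in opposite directions and both carry an AP-1 motif. Each is the 250 bases before the start site from RefSeq on GRCh38.p14, read 5′ to 3′ on the strand of the gene: chr4:73740319-73740568, plus strand, for IL8 and chr5:135578992-135579241, minus strand, for CXCL14. Capitals mark TGANTCA (AP-1) and GGAATTTCC (NF-kB), each searched on both strands. The IL8 region also holds CAAATT, a core described for FOXP2, and on its minus strand CTTTGAT, a TCF/LEF motif. Both are left in small letters.

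IL8: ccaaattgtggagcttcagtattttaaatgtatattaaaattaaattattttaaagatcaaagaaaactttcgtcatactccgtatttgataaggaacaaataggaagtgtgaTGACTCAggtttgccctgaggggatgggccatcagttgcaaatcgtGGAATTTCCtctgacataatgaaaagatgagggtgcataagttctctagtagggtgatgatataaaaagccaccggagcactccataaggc

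CXCL14: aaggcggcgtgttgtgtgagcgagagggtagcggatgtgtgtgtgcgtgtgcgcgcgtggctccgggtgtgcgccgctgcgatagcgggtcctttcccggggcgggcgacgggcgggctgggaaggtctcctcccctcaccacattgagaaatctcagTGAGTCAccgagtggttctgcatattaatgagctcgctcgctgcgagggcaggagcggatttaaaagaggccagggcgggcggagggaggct

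In IL8 the AP-1 motif ends 130 bases and the NF-kB motif 82 bases before the start site, and in CXCL14 the AP-1 motif ends 85 bases before it. A match of this kind describes the letters and does not show binding. TGANTCA was in 7.71% of all 35116 promoter windows and GGAATTTCC in 0.461%. Among the 20 NF-kB list genes with a window, 6 held GGAATTTCC (30%), against 0.607% of the 12676 tested genes that could be matched. A gene counted, here and below, if any of its windows held the motif.

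The interferon system did not share in the rise of the inflammatory genes. Interferon-stimulated genes, which cells express in response to type I interferon and to foreign nucleic acid, fell in 26 of 32 and rose in 6, with 18 falls past the 2-fold test (median log2 fold change -1.35). When libraries were scaled to total counts, 4 rose. IFIT1, an antiviral RNA-binding protein gene, was at 0.861, 0.698, 0.625, 1.12 and 1.35 CPM in the WT FOXP2 libraries and at 19.6, 21.2, 19.3, 19.4 and 18.2 CPM in the mock libraries (-4.32 ± 0.16). OASL averaged 2.89 CPM with WT FOXP2 and 17.9 CPM in mock, and IFI44L 0.527 CPM and 7.57 CPM. STAT2, a subunit of the factor that drives these genes, averaged 39.6 ± 1.58 CPM with WT FOXP2 and 103 ± 3.37 CPM in mock. Of 15 antigen presentation genes 11 fell and 2 rose (median -0.48), with the immunoproteasome subunit PSMB9 at 1.33 CPM against 7.60 CPM, the regulator NLRC5 at 6.18 CPM against 14.8 CPM, and HLA-E higher at 49.4 CPM against 25.6 CPM. Sensors of cytosolic DNA moved little: 4 of 8 rose and 3 fell, none past the 2-fold test, and 3 rose and 4 fell on total counts. The sensor cGAS (MB21D1) averaged 16.8 CPM with WT FOXP2 and 10.6 CPM in mock, and the DNase gene TREX1 9.18 CPM and 12.2 CPM. Of the 3 falls 1 was no call without mock replicate 2 or 3, or WT FOXP2 replicate 2, 3 or 4.

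**Figure D3:**
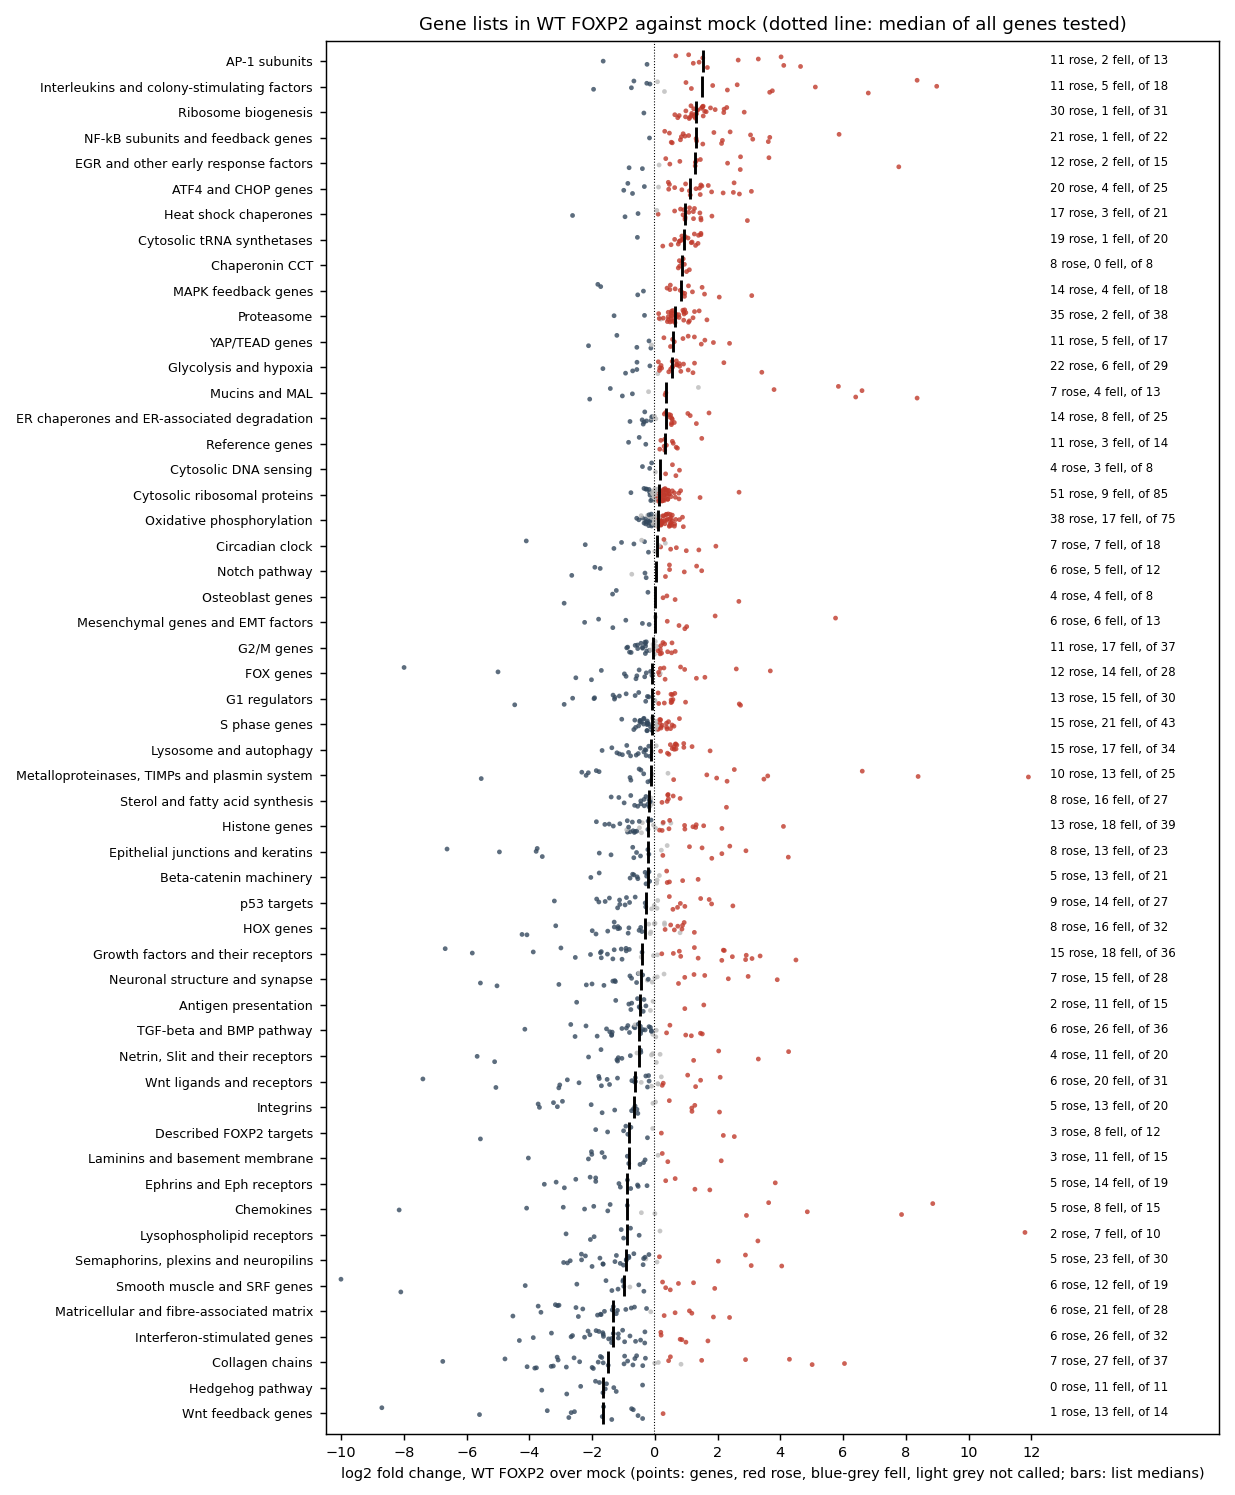
Log2 fold change of each tested member of the 55 gene lists except cystatins (6 tested), WT FOXP2 over mock (horizontal axis), with red points for genes that rose, blue-grey for genes that fell and light grey for genes with no call, and a black bar at each list's median. FOXP2 is left out of the points. Lists run from AP-1 subunits (median 1.53) at the top to Wnt feedback genes (median -1.66) at the bottom, and the dotted line is the median of all genes.

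Several matrix proteases rose, while most genes of the matrix itself fell. Among metalloproteinases, their inhibitors and the plasmin system, 10 of 25 rose and 13 fell (11 and 11 without WT FOXP2 replicate 5), with a median log2 fold change of -0.14. MMP1, the interstitial collagenase, was at 20.04, 26.8, 22.9, 24.6 and 21.7 CPM in the WT FOXP2 libraries and had 0 counts in all 5 mock libraries, at least 163-fold higher. The stromelysin gene MMP3 averaged 161 ± 12.5 CPM with WT FOXP2 and 0.470 ± 0.135 CPM in mock (8.39 ± 0.12). In the urokinase system 2 genes that rose were PLAU, the protease, with 675, 717, 714, 711 and 678 CPM in the WT FOXP2 libraries against 59.1, 63.1, 64.8, 65.5 and 61.6 CPM in the mock libraries, and its receptor gene PLAUR with 345 CPM against 59.6 CPM. MMP2, the gelatinase of mesenchymal cells, fell to 214 ± 8.79 CPM with WT FOXP2, against 933 ± 9.96 CPM in mock.

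Of 37 collagen chains 27 fell and 7 rose, with 19 falls and 5 rises past the 2-fold test (median log2 fold change -1.49). COL1A1, a chain of the main collagen of bone, was at 219.5, 218, 228, 210.0 and 220.0 CPM in the WT FOXP2 libraries and at 1354, 1231, 1293, 1332 and 1328 CPM in the mock libraries (-2.58 ± 0.11). The fibrillar chains COL3A1 (4.30 CPM against 72.7 CPM), COL5A1 (41.0 CPM against 348 CPM) and COL5A2 (26.1 CPM against 257 CPM) fell further. The transmembrane collagens COL13A1 (93.1 CPM against 12.5 CPM) and COL17A1 (37.1 CPM against 1.93 CPM) rose. Of 28 matricellular and fibre-associated genes 21 fell and 6 rose (median -1.34), of 15 laminins and other basement membrane genes 11 fell and 3 rose (median -0.83), and of 20 integrins 13 fell and 5 rose (median -0.66). SPARC, which binds collagen and calcium in bone, averaged 855 ± 34.3 CPM with WT FOXP2 and 2006 ± 34.6 CPM in mock, and fibronectin (FN1) 1237 ± 26.9 CPM and 2353 ± 77.9 CPM. LOXL4, a collagen cross-linking enzyme, averaged 26.1 CPM and 344 CPM, the hyaluronan link protein gene HAPLN1 31.0 CPM and 552 CPM, and the laminin chain gene LAMA4 2.92 CPM and 47.4 CPM. Tenascin C (TNC), made during tissue repair, rose to 1337 CPM against 591 CPM, and the laminin-332 chain gene LAMB3 to 756 CPM against 174 CPM. CD44, the hyaluronan receptor, was at 590, 628, 616, 630.3 and 616 CPM in the WT FOXP2 libraries and at 70.8, 73.9, 76.4, 75.4 and 74.3 CPM in the mock libraries (3.05 ± 0.04).

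Growth factors, their receptors and binding proteins were mixed, with 15 of 36 risen and 18 fallen (39.9% and 41.6% over all genes tested). Among the rises were HBEGF (74.6 CPM against 9.99 CPM), EREG (7.43 CPM against 1.69 CPM) and AREG (3.13 CPM against 0.142 CPM), which encode ligands of the EGF receptor, and FGF5 (34.6 CPM against 3.34 CPM) and the neuregulin gene NRG1 (23.1 CPM against 2.66 CPM). Among the falls were the platelet-derived growth factor gene PDGFB, at 0.366 CPM against 21.4 CPM, and the receptor gene PDGFRA, at 4.90 CPM against 71.1 CPM. IGFBP5, which binds insulin-like growth factors and is abundant in bone, lost more CPM than any other gene. It was at 24.3, 19.1, 15.6, 12.7 and 12.9 CPM in the WT FOXP2 libraries and at 1765, 1649, 1744, 1709 and 1704 CPM in the mock libraries (-6.69 ± 0.17). Among 10 receptors and enzymes of lysophospholipid signalling 2 rose and 7 fell. LPAR6, a receptor of lysophosphatidic acid, was at 17.5, 23.5, 21.6, 23.4 and 21.5 CPM in the WT FOXP2 libraries and had 0 counts in all mock libraries, at least 151-fold higher. S1PR1 rose (8.26 CPM against 0.860 CPM), while S1PR3 (14.9 CPM against 57.2 CPM) and LPAR5 (1.35 CPM against 9.78 CPM) fell.

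Contractile and mechanical programmes did not move as a block. Smooth muscle genes and targets of SRF, the factor that MYOCD and MKL proteins coactivate, fell in 12 of 19 and rose in 6 (median log2 fold change -0.99). MYOCD was at 0.0430 to 0.188 CPM with WT FOXP2 and 32.6 to 35.9 CPM in mock (-8.10 ± 0.16), and the tropomyosin gene TPM1 at 103 CPM against 580 CPM. TAGLN, a standard smooth muscle marker, rose to 69.0 CPM against 18.5 CPM. The filamin gene FLNC, which is not on this list, rose to 1761 ± 134 CPM against 247 ± 8.60 CPM. Targets of YAP and TEAD, which respond to cell spreading and stiffness, rose in 11 of 17 and fell in 5 (median 0.56), with CYR61 at 404 ± 5.88 CPM against 77.6 ± 2.08 CPM, CTGF at 674 CPM against 185 CPM and AMOTL2 at 273 CPM against 90.4 CPM. In this list 5 rises and 2 falls passed the 2-fold test, and the largest fall was -2.12 on the log2 scale. The transforming growth factor beta and bone morphogenetic protein pathway fell in 26 of 36 and rose in 6 (median -0.50). Its inhibitory SMAD genes SMAD6 (1.06 CPM against 18.5 CPM) and SMAD7 (8.03 CPM against 23.2 CPM) fell, as did the ligand genes TGFB2 (16.2 CPM against 94.2 CPM) and BMP4 (25.9 CPM against 67.2 CPM) and the latency protein gene LTBP1 (56.1 CPM against 257 CPM). ID1, an immediate target of bone morphogenetic proteins, was at 87.8 CPM with WT FOXP2 and 96.9 CPM in mock (-0.14, and -0.11 with no call without mock replicate 3). The receptor gene TGFBR2 rose, to 269 CPM against 98.3 CPM.

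Every tested gene of the Hedgehog pathway fell, 11 of 11, and 10 of them passed the 2-fold test (median log2 fold change -1.66). In this pathway PTCH1 holds the membrane protein SMO in check until a ligand binds, and GLI factors then drive target genes that include GLI1, PTCH1 and HHIP. GLI1 was at 3.996, 4.14, 3.94, 3.87 and 3.41 CPM in the WT FOXP2 libraries and at 47.5, 46.2, 46.9, 47.2 and 46.8 CPM in the mock libraries (-3.61 ± 0.11). PTCH1 was at 13.8, 15.2, 14.6, 15.6 and 15.8 CPM in the WT FOXP2 libraries and at 109, 101, 105, 106 and 108 CPM in the mock libraries (-2.81 ± 0.05), and the decoy receptor gene HHIP averaged 2.90 CPM and 15.0 CPM. The transducers fell by less, GLI2 to 42.8 CPM against 128 CPM, GLI3 to 62.7 CPM against 155 CPM and SMO to 25.2 CPM against 59.0 CPM. SUFU, which restrains GLI proteins in the cytoplasm, was the member that missed the 2-fold test, at 22.8 CPM against 29.9 CPM.

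Wnt/beta-catenin signalling limits itself by inducing its own inhibitors, and these fell in 13 of 14, with 1 rise and 9 falls past the 2-fold test (median log2 fold change -1.66). SOSTDC1, a secreted antagonist of Wnt and bone morphogenetic proteins, was at 0, 0.0998, 0, 0.0430 and 0 CPM in the WT FOXP2 libraries and at 14.5, 15.2, 14.6, 14.1 and 15.6 CPM in the mock libraries. By pooled counts it was 504-fold lower (95% counting interval 172 to 2445), and its log2 fold change of -8.71 was -9.66 without WT FOXP2 replicate 2, which held 2 of the 3 reads. In CHIR cells without FOXP2, a group whose replicate 1 stood apart, SOSTDC1 averaged 0.267 CPM, below its 14.8 CPM in mock. There AXIN2 averaged 145 CPM, above its 20.9 CPM in mock. RNF43, a ubiquitin ligase that removes Wnt receptors, was at 1.84, 1.05, 0.688, 1.21 and 1.05 CPM in the WT FOXP2 libraries and at 57.0, 53.8, 55.5, 57.7 and 56.4 CPM in the mock libraries (-5.59 ± 0.20). Its paralogue ZNRF3 was the rise, at 37.6 CPM against 31.4 CPM, and had no call on total counts. The Wnt-deacylating enzyme gene NOTUM (2.91 CPM against 18.5 CPM), NKD1 (5.73 CPM against 18.3 CPM) and AXIN2 (8.11 ± 0.850 CPM against 20.9 ± 1.01 CPM) fell. LEF1, a DNA-binding partner of beta-catenin, changed less, at 30.2 ± 1.95 CPM with WT FOXP2 and 39.7 ± 1.45 CPM in mock.

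Ligands and receptors of Wnt fell in 20 of 31 and rose in 6 (median -0.62). ROR1, a receptor of noncanonical Wnts, was at 4.06, 2.99, 3.56, 3.01 and 3.67 CPM in the WT FOXP2 libraries and at 116, 119, 114, 116 and 114 CPM in the mock libraries (-5.07 ± 0.08). WNT11 averaged 0.0968 CPM with WT FOXP2 and 15.8 CPM in mock, and LGR4, a receptor of R-spondins, 3.90 CPM and 26.8 CPM, while WNT5A had no call, at 16.4 CPM and 15.4 CPM. The intracellular machinery fell in 13 of 21 and rose in 5, or rose in 8 when the 2 groups were fitted alone, with 3 changes past the 2-fold test (median -0.23). CTNNB1, beta-catenin, was at 346 to 357 CPM with WT FOXP2 and 419 to 439 CPM in mock (-0.28 ± 0.03). APC, of the complex that destroys it, had no call at 81.2 CPM and 78.1 CPM, although it was called with the 2 groups fitted alone, and TCF7L1, a repressor member of the TCF family, fell to 3.90 CPM against 16.1 CPM.

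Genes of the integrated stress response rose. In this response kinases that sense amino acid lack, unfolded protein or viral RNA slow translation and let the factor ATF4 be made, which with DDIT3 (CHOP) induces amino acid and redox genes. Of 25 ATF4 and CHOP genes 20 rose and 4 fell, 14 of the rises past the 2-fold test (median log2 fold change 1.13). PPP1R15A, the phosphatase subunit that ends the response, was at 209, 257, 237, 262 and 238 CPM in the WT FOXP2 libraries and at 30.5, 27.3, 28.3, 27.6 and 28.8 CPM in the mock libraries (3.08 ± 0.06). DDIT3 averaged 102 ± 6.96 CPM with WT FOXP2 and 15.6 ± 1.22 CPM in mock, ATF3 38.6 CPM and 6.16 CPM, and TRIB3 76.9 CPM and 17.0 CPM. ATF4 itself averaged 656 CPM and 300.4 CPM, and asparagine synthetase (ASNS) 178 CPM and 82.7 CPM. CHAC1, which degrades glutathione, was at 29.4, 28.5, 32.4, 30.9 and 29.4 CPM in the WT FOXP2 libraries and at 5.40, 5.34, 4.98, 5.24 and 5.71 CPM in the mock libraries (2.50 ± 0.10). Cytosolic tRNA synthetases, many of them ATF4 targets, rose in 19 of 20 and fell in 1 (median 0.93), with YARS at 364 CPM against 132 CPM, TARS at 598 CPM against 228 CPM and VARS at 263 CPM against 95.2 CPM. The other arms of the unfolded protein response moved less: chaperones and degradation factors of the endoplasmic reticulum rose in 14 of 25 and fell in 8 (median 0.34). Its sensor gene ERN1 averaged 59.0 CPM with WT FOXP2 and 17.8 CPM in mock, XBP1 154 CPM and 74.1 CPM, and the main chaperone gene HSPA5 1203 CPM and 835 CPM.

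The CHAC1 promoter is printed because the gene is a standard readout of ATF4 and carries the composite site TGATGCAA on its minus strand, where it reads as the capitals below. The region is chr15:40953221-40953470 of GRCh38.p14, plus strand, from RefSeq.

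CHAC1: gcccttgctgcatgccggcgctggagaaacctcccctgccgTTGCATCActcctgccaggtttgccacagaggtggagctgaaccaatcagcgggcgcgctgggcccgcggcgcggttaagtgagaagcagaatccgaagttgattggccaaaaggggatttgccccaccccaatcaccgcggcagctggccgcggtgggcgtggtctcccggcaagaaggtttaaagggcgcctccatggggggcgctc

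The motif ends 201 bases before the start site. TGATGCAA was in 0.866% of all promoter windows and in 0.852% of tested genes with a window. It was in 2 of the 20 ATF4 and CHOP genes with a window and in 6 of the 16 tRNA synthetase genes with one.

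Cytosolic chaperones and the proteasome, which fold and remove proteins, gained many reads. Heat shock chaperones rose in 17 of 21 and fell in 3 (median log2 fold change 0.97). HSPA8, the constitutive HSP70, was at 3390, 3466, 3490, 3440 and 3438 CPM in the WT FOXP2 libraries and at 1195, 1242, 1263, 1270 and 1243 CPM in the mock libraries (1.47 ± 0.03), and apart from FOXP2 no gene gained more CPM. The HSP90 genes HSP90AB1 and HSP90AA1 averaged 4339 ± 27.1 CPM and 3217 ± 93.2 CPM with WT FOXP2, against 2223 ± 25.1 CPM and 1166 ± 26.1 CPM in mock. HSPD1, of mitochondria, averaged 1350.0 CPM and 499.5 CPM. DNAJB1, a common readout of heat shock factor, was at 217 CPM against 202 CPM (0.10, and -0.06 with no call on total counts), and the small heat shock protein gene CRYAB fell to 8.05 CPM against 49.4 CPM. The list ran from -2.63 to 2.95, and HSPA6, which rose, changed most among its called members with a mean of at least 1 CPM. All 8 subunits of CCT, the chaperonin that folds actin and tubulin, rose by 0.75 to 1.10 (median 0.88), and 1 of them, CCT2, passed the 2-fold test. Of 38 proteasome genes 35 rose and 2 fell (median 0.63). PSMD2, a subunit of the 19S base, was at 2003, 2071, 2116, 2094 and 2046 CPM in the WT FOXP2 libraries and at 648, 644, 662, 652 and 665 CPM in the mock libraries (1.66 ± 0.03). PSME1, an interferon-inducible activator subunit, fell to 49.4 ± 4.13 CPM against 121 ± 3.88 CPM.

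HSPA8 is shown because it carries the core of the heat shock element, GAANNTTC, at 2 places, in capitals. The region is chr11:123062137-123062386 of GRCh38.p14, minus strand, from RefSeq.

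HSPA8: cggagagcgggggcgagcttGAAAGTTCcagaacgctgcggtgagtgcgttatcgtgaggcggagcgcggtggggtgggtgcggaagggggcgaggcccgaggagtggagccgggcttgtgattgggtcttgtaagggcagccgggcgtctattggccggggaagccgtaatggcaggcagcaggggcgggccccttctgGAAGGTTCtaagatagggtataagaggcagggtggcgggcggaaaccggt

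The motifs end 222 and 42 bases before the start site. GAANNTTC was in 6.77% of all promoter windows, in 6.83% of tested genes with a window and in 10 of the 18 heat shock genes with one (55.6%).

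Ribosome biogenesis genes rose in 30 of 31, 25 past the 2-fold test (median log2 fold change 1.33). They make, cut and modify ribosomal RNA in the nucleolus, and many are known targets of MYC. RRP12, needed to export preribosomes, was at 179, 200.3, 201, 201 and 188 CPM in the WT FOXP2 libraries and at 26.7, 25.1, 27.9, 29.5 and 25.4 CPM in the mock libraries (2.85 ± 0.05). NOP16 averaged 72.9 CPM with WT FOXP2 and 14.9 CPM in mock, RRP9 128 CPM and 28.1 CPM, nucleolin (NCL) 1667 CPM and 771 CPM, and the RNA polymerase I subunit gene POLR1B 144 CPM and 58.3 CPM. UBTF, which binds ribosomal DNA, was the fall, at 213 CPM against 272 CPM. Ribosomal proteins themselves moved little and depended on the scaling: 51 of 85 rose and 9 fell (median 0.13), whereas on total counts 27 rose and 32 fell.

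NOP10, a subunit of the H/ACA particles that modify ribosomal RNA, averaged 84.1 ± 3.31 CPM with WT FOXP2 and 37.3 ± 0.774 CPM in mock. Its promoter is shown because it holds the E-box CACGTG, the site of MYC and related factors, at 2 places, in capitals. The region is chr15:34343137-34343386 of GRCh38.p14, minus strand, from RefSeq.

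NOP10: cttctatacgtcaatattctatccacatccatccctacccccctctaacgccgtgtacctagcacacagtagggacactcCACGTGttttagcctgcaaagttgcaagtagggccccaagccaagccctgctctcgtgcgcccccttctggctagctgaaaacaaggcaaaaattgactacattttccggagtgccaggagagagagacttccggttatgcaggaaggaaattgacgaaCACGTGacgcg

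The E-boxes end 164 and 5 bases before the start site. CACGTG was in 7.26% of all promoter windows, in 12% of tested genes with a window and in 11 of the 26 ribosome biogenesis genes with one (42.3%).

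The shares of the NF-kB, ATF4, heat shock and E-box motifs differed less over all genes than within the lists above. Among genes with a window past the 2-fold test, the E-box was in 15.5% of risen and 8.89% of fallen ones. For the NF-kB motif these shares were 1.15% and 0.574%. The AP-1 motif was in 1 of the 10 AP-1 subunit genes and 1 of the 20 NF-kB list genes with a window. TGANTCA was in 14.8% of the 1217 genes with a window that rose past the 2-fold test, in 9.18% of the 1743 that fell past it and in 7.83% of all tested genes with a window. The forkhead motif TGTTTAC was in 3.04% of those that rose, 4.7% of those that fell and 3.55% of all tested. For CAAATT, a core described for FOXP2, the shares were 12.5%, 9.98% and 9.4%, and for the TCF/LEF motif CTTTGAT 2.79%, 2.18% and 2.21%. Genes were matched to windows in 68.6% of all tested, 62.9% of those risen and 63.7% of those fallen past the 2-fold test. These are shares of letters in windows and carry no test.

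Glycolysis genes rose more often than they fell, and genes of oxidative phosphorylation, S phase and G2/M had no change past the 2-fold test. Of 29 glycolysis and hypoxia genes 22 rose and 6 fell (median log2 fold change 0.55). HK2, the inducible hexokinase, averaged 191 CPM with WT FOXP2 and 17.97 CPM in mock, and the glycolytic enzyme gene ENO1 3235 ± 78.3 CPM and 1874 ± 44.4 CPM. Oxidative phosphorylation genes rose in 38 of 75 and fell in 17, and on total counts 22 rose and 32 fell. Of the G2/M list 11 of 37 rose and 17 fell (6 and 26 on total counts), and of the S phase list 15 of 43 rose and 21 fell (9 risen on total counts). Of 30 regulators of G1, 13 rose and 15 fell, 2 and 9 of them past the 2-fold test, among them MXD1, an antagonist of MYC, at 21.1 CPM against 3.25 CPM, and the inhibitor genes CDKN1B (26.9 CPM against 66.0 CPM) and CDKN2C (17.1 CPM against 64.7 CPM). Of 14 reference genes often taken as constant, 11 rose and 3 fell, with TFRC at 990.0 CPM against 352 CPM and ACTB at 6303 CPM against 5078 CPM.

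Axon guidance families and a list of neuronal genes, from the field in which FOXP2 is best studied, fell more often than they rose. For comparison, 41.6% of all genes tested fell and 39.9% rose. Among all genes with a mean of 1 to 10 CPM, 2625 of 4662 fell and 1201 rose (median log2 fold change -0.45). The netrin and neuronal lists had medians near that value, and whether their falls go beyond it was not tested. Semaphorins, plexins and neuropilins fell in 23 of 30 and rose in 5 (median log2 fold change -0.91), ephrins and Eph receptors fell in 14 of 19 and rose in 5 (median -0.88), and netrins, Slits and their receptors fell in 11 of 20 and rose in 4 (median -0.51). SEMA3E, a repellent ligand, averaged 18.9 ± 0.868 CPM with WT FOXP2 and 95.7 ± 3.55 CPM in mock. Against this trend SEMA7A, a membrane-anchored ligand, was at 261, 295, 287, 291 and 267 CPM in the WT FOXP2 libraries and at 36.2, 38.2, 39.0, 38.9 and 36.9 CPM in the mock libraries (2.89 ± 0.05), and the receptor gene PLXNA2 averaged 97.9 CPM and 11.7 CPM. EPHA2, an Eph receptor common in tumour cells, rose to 190 CPM against 56.5 CPM. Genes of neuronal structure and synapses fell in 15 of 28 and rose in 7 (median -0.45), or 4 when genes under a mean of 1 CPM were left out. The adhesion gene L1CAM averaged 40.9 ± 3.25 CPM with WT FOXP2 and 340.4 ± 10.1 CPM in mock, MAP2 1.19 CPM and 38.7 CPM, and the synaptic vesicle gene SYP rose to 60.5 CPM against 4.07 CPM. A set of 8 neuron markers, which also holds SYP, had 3 rises and 2 falls. It summed to 135.5 to 140.3 CPM with WT FOXP2 and 93.1 to 99.3 CPM in mock, and the higher sum rests on SYP. The other rises were STMN2 (0.850 CPM against 0.163 CPM) and RBFOX3 (13.03 CPM against 5.49 CPM). The falls were NEFL (46.5 CPM against 67.2 CPM) and SNAP25 (12.3 CPM against 14.1 CPM).

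Of 12 tested genes that earlier work on neurons and other cells has described as FOXP2 targets, 8 fell and 3 rose, 3 and 2 of them past the 2-fold test (median -0.81). CNTNAP2, a neurexin family gene that FOXP2 is known to repress, was at 0.430, 0.150, 0.563, 0.172 and 0.337 CPM in the WT FOXP2 libraries and at 15.1, 14.3, 15.6, 14.2 and 16.2 CPM in the mock libraries (-5.56 ± 0.18). EFNB3 fell to 12.9 CPM against 47.6 CPM and SRPX2, a described repression target, by little, to 29.6 CPM against 34.9 CPM. MET, a receptor tyrosine kinase gene whose repression by FOXP2 has been described, rose here, to 229 ± 3.62 CPM against 50.5 ± 1.06 CPM, and so did PLAUR. Within the forkhead family 12 of 28 genes rose, FOXP2 among them, and 14 fell, counts that became 12 and 12 without WT FOXP2 replicate 1, 3 or 4 or mock replicate 1 or 3. Over all genes tested 39.9% rose and 41.6% fell, so these counts alone do not set the family apart. The paralogues that can pair with FOXP2 fell, FOXP1 to 8.25 to 10.1 CPM with WT FOXP2 against 51.02 to 56.1 CPM in mock (-2.52 ± 0.07), and FOXP4 to 65.4 CPM against 97.5 CPM. FOXS1 fell to 0.0375 to 0.307 CPM, against 29.7 to 33.6 CPM in mock.

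Markers were read to check the label of the line. Of 8 markers of a mesenchymal bone tumour line 7 could be tested, 4 rose and 3 fell, and their summed level was 4240 to 4399 CPM with WT FOXP2 and 5337 to 5536 CPM in mock. RUNX2, the master factor of osteoblasts, was at 7.87, 7.13, 9.69, 7.23 and 7.61 CPM in the WT FOXP2 libraries and at 57.3, 59.7, 57.7, 56.0 and 60.7 CPM in the mock libraries (-2.89 ± 0.06). VIM, the mesenchymal filament gene, was high in both groups (2587 CPM against 1968 CPM), and COL1A2 was near 0 in both (0.145 CPM against 0.187 CPM). Osteoblast genes rose in 4 of 8 and fell in 4, with alkaline phosphatase (ALPL) higher at 20.6 CPM against 3.19 CPM. Markers of other cell types moved in both directions. Of 14 leukocyte markers 5 were tested, 4 rose and 1 fell, and their summed level was 69.6 to 76.2 CPM with WT FOXP2 and 8.55 to 10.5 CPM in mock. The actin bundler gene LCP1 made up most of it (56.7 CPM against 8.08 CPM) and the integrin gene ITGAM a part (10.9 CPM against 0.123 CPM). CD3E and TYROBP had 0 counts in all 10 libraries, and 10 of the 14 were under 1 CPM in all of them. Of 9 endothelial markers 7 were tested, 3 rose and 3 fell (sum 21.2 to 26.8 CPM against 15.0 to 19.6 CPM), with TIE1 up at 9.84 CPM against 0.260 CPM, KDR down at 0.200 CPM against 1.57 CPM, VWF down at 1.88 CPM against 4.05 CPM, and CLDN5 and EMCN under 0.05 CPM in all 10 libraries. The part of these genes in other results was not tested. Epithelial markers summed to 644 to 678 CPM with WT FOXP2 and 380 to 419 CPM in mock, mostly from KRT18 (481 CPM against 169.5 CPM), with GRHL2 under 0.05 CPM in all 10 libraries. Of 23 genes of epithelial junctions and keratins 8 rose and 13 fell, among them the desmosome gene DSP, up at 11.6 CPM against 0.623 CPM, the basal keratin gene KRT14, down at 0.242 CPM against 24.8 CPM, and JUP, down at 3.48 CPM against 42.1 CPM. With a mean of at least 1 CPM, 5 rose.

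The 12 largest rises among genes with a mean of at least 1 CPM included MMP1, LPAR6, IL24 and CCL3 described above. ENAM, an enamel matrix gene, was at 3.94 to 5.21 CPM with WT FOXP2 and had 0 counts in mock, at least 32-fold higher, and SPRR2D, of the epidermal cornified envelope, at 2.40 to 3.79 CPM against 0 counts, at least 23.9-fold higher. MYCT1 averaged 36.4 CPM with WT FOXP2 and 0.0491 CPM in mock. The rest were CTD-2532D12.4, OR7E91P, RP11-753N8.1, CES1P2 and AF121898.3, noncoding genes and pseudogenes whose reads may come in part from overlapping genes or copies. CTD-2532D12.4 was 979-fold higher by pooled counts (95% counting interval 175 to 38690) and AF121898.3 518-fold higher (143 to 4285). Without the 1 mock library that held a read, the log2 fold change of CTD-2532D12.4 was 10.58 in place of 9.22 (mock replicate 3) and that of AF121898.3 10.68 in place of 8.63 (mock replicate 1). Among the 12 largest falls were SOSTDC1, CXCL14, MYOCD and FOXS1, above. PRND, which encodes a relative of the prion protein, had 0 counts with WT FOXP2 and 13.2 to 14.4 CPM in mock, at least 94.7-fold lower. KANK4, an actin regulator, had 0 counts against 5.54 to 6.599 CPM, at least 42.2-fold lower. The serotonin receptor gene HTR2A had 1 read in all with WT FOXP2 and 7.33 to 9.06 CPM in mock. It was 858-fold lower by pooled counts (154 to 33940), and its log2 fold change of -9.05 was -10.44 without WT FOXP2 replicate 2. GABRR1 and SYT8 had 0 counts with WT FOXP2 and means of 2.28 and 2.15 CPM in mock, and RP11-798L4.1 and AC074289.1 were also in the set.

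Among genes with at least 20 CPM in both groups the largest rise was that of SNAPC1, a subunit of the factor that starts small nuclear RNA transcription. It was at 463, 484, 454, 511 and 502 CPM in the WT FOXP2 libraries and at 31.1, 34.2, 33.0, 32.5 and 32.1 CPM in the mock libraries (3.89 ± 0.06). The zinc finger gene ZNF542 averaged 346 CPM with WT FOXP2 and 31.8 CPM in mock, SYNE1, of the nuclear envelope, 667 CPM and 77.5 CPM, and KAL1, or ANOS1, 230.2 CPM and 29.8 CPM. The largest falls at this level were HAPLN1 and TUBA1A, an alpha-tubulin of developing neurons, at 25.7 ± 2.16 CPM with WT FOXP2 and 382 ± 9.58 CPM in mock (-3.90 ± 0.08). EDIL3, an integrin ligand (40.2 CPM against 523 CPM), and the pseudokinase gene TRIB2 (25.2 CPM against 282 CPM) followed with LOXL4.

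The effect of WT FOXP2 was also measured in cells kept in CHIR, a comparison that shares no library with the one above. Before its values are given: CHIR replicate 1, WT FOXP2 with CHIR replicate 4 and dhelix FOXP2 replicate 5 stood apart from their groups. Their chi-square per gene was 28.5, 5.98 and 10.95. The other libraries of these groups had 7.40 to 10.81, 2.97 to 4.465 and 3.92 to 4.62. WT FOXP2 with CHIR replicate 4 was thus the nearest to its group. In the WT FOXP2 and mock libraries the range was 1.67 to 2.80. FOXP2 RNA itself averaged 15300 CPM with WT FOXP2 and CHIR and 0.504 CPM with CHIR, against 7076 CPM and 0.898 CPM in the groups without the drug, so the amount of FOXP2 and the drug cannot be told apart in what follows. With CHIR 78.4% of genes were called. Of the 1933 genes other than FOXP2 that rose past the 2-fold test, 1703 rose with CHIR as well, and of the 2736 that fell past it, 1900 fell with CHIR. In all 412 of these 4669 genes were called in the opposite direction with CHIR and 654 had no call. The interaction, which tests the effect with CHIR minus the effect without, was called in 12130 genes (65.6%), 5677 more positive and 6453 more negative with CHIR, and in 12273 without the 3 libraries that stood apart, a setting chosen after the data were seen.

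The median over AP-1 subunits was 1.58 with CHIR and 1.53 without, and over NF-kB genes 1.11 with CHIR and 1.32 without, and the interaction was called in 11 of 13 AP-1 subunits and 17 of 22 NF-kB genes, beside 65.6% of all genes tested. It was 2.52 ± 0.41 for FOSB and 1.83 ± 0.12 for FOS, and -2.31 ± 0.10 for FOSL1 and -1.21 ± 0.06 for JUN. Other lists had medians nearer 0 with CHIR: the median was 0.48 with CHIR and 1.33 without for ribosome biogenesis, 0.20 and 0.93 for tRNA synthetases, -0.31 and -1.49 for collagens, and -0.63 and -1.66 for the Hedgehog pathway, where all 11 interactions were called. AXIN2 fell in both, by 1.56 ± 0.08 with CHIR and by 1.38 ± 0.11 without, and the interaction of -0.19 ± 0.14 had no call (edgeR adjusted p = 0.254), its level being 49.2 CPM against 145 CPM with CHIR and 8.11 CPM against 20.9 CPM without. CXCL14 stood at 2.81 CPM with WT FOXP2 and CHIR and 2.80 CPM with WT FOXP2 alone, while the cells it is set against held 9.32 CPM with CHIR and 790 CPM in mock. Likewise PTCH1 was at 12.7 CPM with WT FOXP2 and CHIR against 9.24 CPM with CHIR, and at 15.0 CPM with WT FOXP2 against 106 CPM in mock. IL24 was at 75.3 CPM against 10.96 CPM with CHIR, and at 104 CPM against 0.202 CPM without. LPAR6 was high in both settings, with 76.2 CPM against 0.0126 CPM in CHIR cells, and its interaction of 0.31 ± 0.55 had no call (edgeR adjusted p = 0.639). Among genes past 2-fold without CHIR, the smallest interaction p-values belonged to LMCD1, the clock repressor gene BHLHE41, ENC1, PTCH1 and RAB11FIP4, more positive with CHIR, and to the immune receptor gene SLAMF7, TNC, the actin-binding gene LIMA1, the Rac activator gene DOCK4 and DUSP5, more negative. TNC, for example, was at 1066 CPM against 2307 CPM in CHIR cells and at 1337 CPM against 591 CPM without CHIR.

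**Figure D4:**
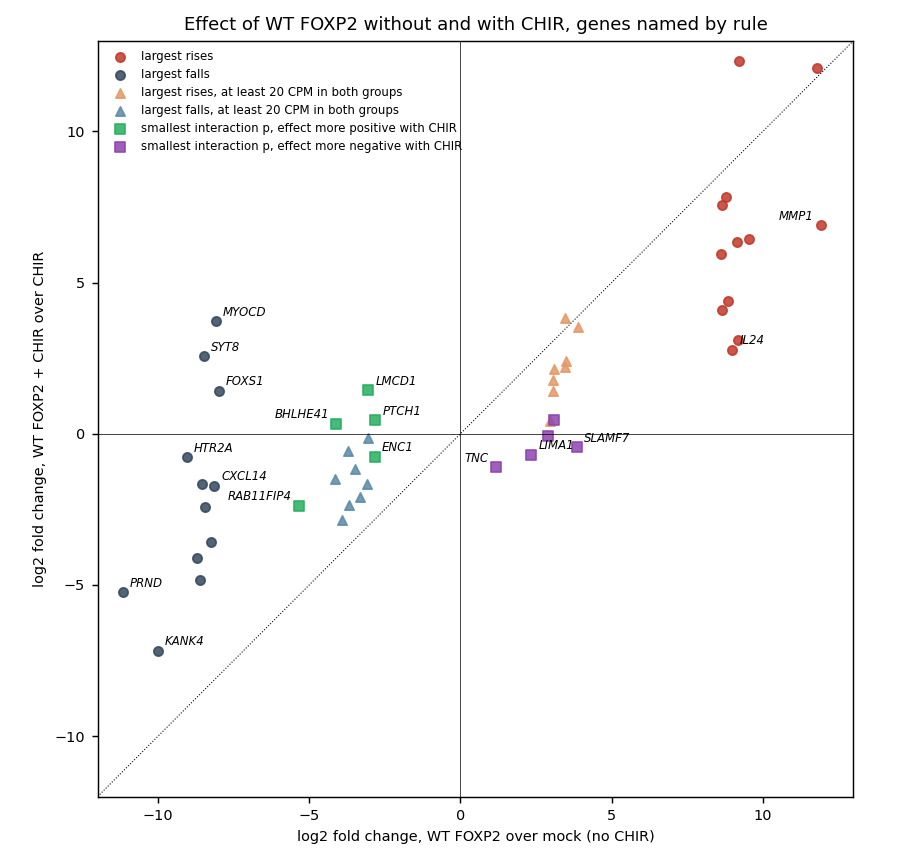
Log2 fold change with CHIR (vertical axis, WT FOXP2 with CHIR over CHIR) against log2 fold change without it (horizontal axis, WT FOXP2 over mock) for the genes named by rule, with the dotted line at equal effects. IL24 lies at 2.78 with CHIR and 8.99 without, and LMCD1, at 1.44 and -3.06, lies across the zero line. Genes with 0 counts in a group are drawn at fitted values, which are no bounds.

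The construct without residues 264 to 272 was compared directly with WT FOXP2, which reuses the 5 WT FOXP2 libraries. A total of 6588 genes were called (35.6%), 3123 higher and 3465 lower with dhelix FOXP2, and 7796 without the 3 libraries that stood apart. FOXP2 RNA was lower with dhelix FOXP2, 5319 CPM against 7076 CPM (-0.41 ± 0.08), so the constructs differ in amount as well as in sequence and the parts of each cannot be told apart. Several genes that rose against mock were lower with dhelix FOXP2: FOSL1 was at 190 CPM with dhelix FOXP2 and 281 CPM with WT FOXP2, IL8 at 45.8 CPM and 87.5 CPM, CD44 at 452 CPM and 616 CPM, and HSPA8 at 3025 CPM and 3445 CPM. PTCH1 had no call, at 15.9 CPM and 15.0 CPM (0.08 ± 0.05). DDIT3 was lower with dhelix FOXP2 (55.3 CPM against 102 CPM, -0.88 ± 0.04), as were DYNC1H1, IRGM (1.61 CPM against 6.71 CPM) and DNAH3 (1.18 CPM against 5.61 CPM). ENC1, which fell with WT FOXP2 (108.5 CPM against 773.5 CPM in mock), was lower still with dhelix FOXP2, at 66.9 CPM. The 5 genes with the smallest p-values among those higher with dhelix FOXP2, of the genes called and at least 2-fold changed against mock, were MAL, MUC5AC, MLC1, LINC00659 and LAPTM5. The membrane protein gene MAL was at 35.6 CPM with dhelix FOXP2 and 5.09 CPM with WT FOXP2 (2.80 ± 0.09), the mucin gene MUC5AC at 40.2 CPM and 5.14 CPM, MLC1 at 114.5 CPM and 33.1 CPM, LINC00659 at 14.1 CPM and 1.84 CPM, and LAPTM5 at 17.8 CPM and 5.09 CPM. With 1 and 3 reads in mock, MAL was 538-fold higher with WT FOXP2 (95% counting interval 96.2 to 21300) and LINC00659 63.9-fold (21.5 to 313). Their log2 fold changes of 8.36 and 5.73 were 9.72 without mock replicate 2 for MAL and 6.58 without mock replicate 3 for LINC00659.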

How the data were processed

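The authors deposited 1 table of whole-number counts per gene for the 30 libraries, made from stranded, poly(A)-selected, paired-end RNA-seq. Per the submitters' processing notes, the tools were Subread with its featureCounts, STAR 2.6.1a and DESeq2, on the build hg19. Not given in the sources used here were the version of the gene annotation, how strand was handled and whether the unit was a read or a pair, so reads of overlapping, antisense or near-identical genes may be shared. No column of per-sample values was left unused.

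Samples were grouped by title. All 30 libraries were fitted together in edgeR 4.0.16 (R 4.3.3, limma 3.58.1) with trimmed-mean scaling, filterByExpr and a robust quasi-likelihood test, and p-values were adjusted by Benjamini-Hochberg over the 18485 genes tested, of 57373 in the table, which hold 99.9% of the counts. A further test asked for more than a 2-fold change. The biological coefficient of variation was 5.62%. Where a group had 0 counts, folds are bounds against 3 counts per library, which like the intervals (95%) cover counting error only. The fit was checked on simulated counts in which a small share of genes changed, equally up and down. Most genes were called in the data, so that check does not cover the scaling used here.

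The comparison, the gene lists and the markers were chosen with earlier results of these data known. Named genes are FOXP2, CTNNB1, AXIN2 and LEF1. To these were added the 12 largest changes per direction whose groups did not overlap, from 1 CPM on average, the 8 largest with at least 20 CPM in both groups, and the 6 largest differences in CPM. Each list gave up to 4 genes plus members whose place in the pathway is described, and the interaction and the construct comparison gave 5 per direction. Alternatives changed the scaling, the filter, the libraries fitted, the replicate block, FOXP2 in library sizes and the test (DESeq2 1.42.0), or left out single libraries. Promoter windows come from RefSeq tables on GRCh38.p14, matched by symbol, not on hg19. Some genes that the naming rule covers are not reported here.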

Additional observations from a re-analysis of the deposited data

Results flagged for a closer look

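Among 55 genes checked in 2 groups each, 7 groups had 1 library apart from the other 4 by Dixon's criterion, and chance flags about 1 group in 20. In WT FOXP2 cells SPRR2D was at 2.398 CPM in replicate 1 (3.528 to 3.786 CPM in the others), COL5A2 at 30.74 CPM in replicate 1 (24.45 to 26.24 CPM) and HTR2A at 0.04988 CPM in replicate 2 (0 CPM). In mock cells CTD-2532D12.4 was at 0.03299 CPM in replicate 3 (0 CPM in the others), AF121898.3 at 0.09724 CPM in replicate 1 (0 CPM), KAL1 at 28.38 CPM in replicate 5 (29.77 to 30.29 CPM) and HSP90AB1 at 2266 CPM in replicate 3 (2201 to 2219 CPM).

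The effect of WT FOXP2 differed between cells with and without CHIR in 18 of 19 genes checked, by the interaction term of edgeR's quasi-likelihood test, which was called in 65.6% of all genes. Of these, 10 had been named for the smallest interaction p-values (LMCD1, BHLHE41, ENC1, PTCH1, RAB11FIP4, SLAMF7, TNC, LIMA1, DOCK4 and DUSP5), so their calls were fixed by that choice and the count is only a description. Its log2 value was 1.993 for FOXP2, where both backgrounds are near 0, 0.1321 for CTNNB1 and -0.2223 for LEF1. It was 6.442 for CXCL14, 11.82 for MYOCD, 9.416 for FOXS1, 4.494 for LMCD1, 4.431 for BHLHE41, 2.07 for ENC1, 3.267 for PTCH1 and 2.95 for RAB11FIP4, all genes that fell without CHIR. It was -6.093 for MYCT1, -6.209 for IL24, -4.291 for SLAMF7, -2.292 for TNC, -3.026 for LIMA1, -2.961 for DOCK4 and -2.636 for DUSP5, all genes that rose without CHIR. With CHIR the effect had the other sign in MYOCD (3.72 with CHIR and -8.10 without), FOXS1 (1.42 and -8.00), LMCD1 (1.44 and -3.06), BHLHE41 (0.33 and -4.10), PTCH1 (0.46 and -2.81), SLAMF7 (-0.44 and 3.85), TNC (-1.11 and 1.18) and LIMA1 (-0.69 and 2.34). For MYOCD and FOXS1 the values with CHIR rest on few reads, with 0.824 CPM against 0.0565 CPM for MYOCD and 0.189 CPM against 0.0690 CPM for FOXS1 (1.42 ± 0.64, edgeR adjusted p = 0.0413).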

How the results depend on the processing

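The counts of calls moved by less than 1.5 times under every alternative but the test against a 2-fold change. The 15083 genes called for WT FOXP2 against mock were 14847 to 15113 with any single library left out, 15193 on total counts, 15100 with DESeq2 size factors, 17496 with no filter, 12880 with a mean of at least 1 CPM, 15515 when only the groups compared were fitted, 15099 with FOXP2 out of the library sizes and 14979 with DESeq2. The test against a 2-fold change called 4670, of which 1934 rose and 2736 fell, and left a one-way majority in 10 of the 55 lists, in place of 41. The replicate numbers do not pair the samples (r between same-numbered libraries -0.064 to 0.014), and the replicate block gave 15111 calls, 7403 up and 7708 down, and left every named gene on its side of the threshold. The 2-fold test lost 53 named genes. Of the other alternatives, total counts put DNAJB1 at -0.0618 with no call and left ZNRF3 without one, leaving out mock replicate 3 did so for ID1 and LIF, APC was called when only the groups compared were fitted, and no other named gene changed its call. The log2 fold change of FOXP2 was 12.85 to 13.06 with single libraries left out. Interaction calls were 11879 to 12529, and calls between the constructs 5829 to 6314, with single libraries left out, and 8344 for the constructs when their 2 groups were fitted alone. On total counts 11 list counts moved by over 1.5 times. The cause was not tested. At 3 counts per library as the floor, genes near 0 in a group give bounds only, and the 3418 genes under a mean of 1 CPM were called less often (65.2%) than the rest.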

Other observations

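Other groups of genes held changes in both directions, to be read beside the 39.9% of all genes tested that rose and the 41.6% that fell. Of 27 p53 targets 9 rose and 14 fell: GADD45A (89.2 CPM with WT FOXP2 against 15.96 CPM in mock) and SESN2 (92.4 CPM against 26.4 CPM), both also induced by ATF4, were higher, while TP53INP1 (5.15 CPM against 47.4 CPM) was lower. Of 18 clock genes 7 rose and 7 fell (8 and 7 without WT FOXP2 replicate 3, 5 and 9 on total counts), with the nuclear receptor gene NR1D1 at 87.0 CPM against 22.6 CPM, PER1 at 64.1 CPM against 24.4 CPM, PER3 at 54.1 CPM against 134 CPM, and the repressor gene BHLHE41 at 8.51 CPM against 146 CPM. In sterol and fatty acid synthesis 8 of 27 rose and 16 fell. HMGCS1, an early enzyme of cholesterol synthesis, rose to 624 CPM against 128 CPM, while the regulators SREBF2 (115 CPM against 303 CPM) and SREBF1 (79.6 CPM against 177 CPM) fell. The cholesterol exporters of the lysosome moved apart, NPC1 at 204 CPM against 60.4 CPM and NPC2 at 77.6 CPM against 249 CPM, within a lysosome and autophagy list in which 15 of 34 rose and 17 fell.

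Of 32 HOX genes 8 rose and 16 fell, 10 of the falls past the 2-fold test, among them HOXB13 (6.71 CPM with WT FOXP2 against 16.4 CPM in mock). In the Notch pathway 6 of 12 rose and 5 fell, with the receptor gene NOTCH3 at 30.2 CPM against 189 CPM and the target gene HES1 at 14.0 CPM against 52.5 CPM. Histone genes rose in 13 of 39 and fell in 18. Of 13 genes of mucins and MAL-like proteins 7 rose and 4 fell, with MUC5AC at 5.14 CPM against 0.0474 CPM and MUC1 at 1.44 CPM against 6.07 CPM. Of 6 cystatins 3 rose and 2 fell, and CST3 was at 34.5 CPM against 58.4 CPM.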
